A study of Mus musculus with 4 samples.

Results

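Enzyme families that process foreign compounds, aldehydes and small endogenous molecules were followed in mouse pancreatic islets: the glutathione S-transferases (Gst), UDP-glucuronosyltransferases (Ugt), cytochromes P450 (Cyp), aldehyde dehydrogenases (Aldh), sulfotransferases (Sult) and carboxylesterases (Ces). Members were taken by gene symbol from the platform annotation, which named 163 such genes with 235 probes among 17711 named genes. The symbols Aldh1l2, Aldh1a3, Cyp51 and Ugt1a7c were not counted as members. The detection p-value of a probe compares it with the negative control beads, and a probe entered the test if this value lay below 0.05 on both arrays of either genotype. This held for 62 probes of 47 member genes, and 116 member genes had no tested probe. RNA came from islets of 12-week-old C57BL/6 mice. The 2 knockout arrays carried RNA of mice with a Pdx1-controlled knockout of Bmpr1a, one of the type I receptors through which bone morphogenetic proteins signal, and the other 2 arrays RNA of wild type mice. Pdx1 marks pancreatic progenitors and, later, beta cells, so cells in an islet that never expressed it, such as immune and endothelial cells, would keep the gene. Whether wild type mice carried a Cre transgene is not given in the labels, nor whether a sample was 1 mouse or a pool. The spread behind the p-values is thus that between these samples and may be technical, and the number of arrays limits the precision. Every change below is the mean normalized log2 intensity of knockout minus that of wild type.

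As background, detoxification runs in steps. Cytochromes P450 oxidise lipids, steroids and drugs at the endoplasmic reticulum or in mitochondria, carboxylesterases split esters, and aldehyde dehydrogenases turn reactive aldehydes into acids. Transferases then attach glutathione (Gst), glucuronic acid (Ugt) or sulfate (Sult), which makes products easier to export. These families are best known from liver. Islets are known for low levels of several antioxidant enzymes.

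Labels and cell content were checked first. The Bmpr1a probe above background had raw intensities of 887 and 687 on knockout arrays 1 and 2, and 793 and 851 on wild type arrays 1 and 2. Its change of -0.28 did not pass the test (adjusted p = 0.204 in limma), and its position relative to the deleted part is not known here, so it does not check the genotype labels. Between 14785 and 16171 probes were above background per array, with median raw intensities of 76.8 to 81.5. All 6 beta cell markers were above background on every array, and 1 of them, Slc2a2, was higher past the test. Of 3 alpha cell markers, Slc38a5 was lower past the test (-1.55) and Gcg and Ttr did not pass. Other cell types were also present: summed raw intensities of 8 of 10 listed lymphocyte markers were 1038 to 1207 in knockout and 8364 to 10388 in wild type islets, with all 8 lower past the test and Cd3e and Cd3g not well above background on either knockout array. Acinar markers (8 of 10 on the array, all above background everywhere) summed to 66327 to 70974 in knockout and 79194 to 95910 in wild type islets, with 3 lower past the test. Of 6 duct markers, Cftr was at least 6.08-fold higher and Sox9 and Tff2 were lower past the test (sums of 5781 to 6612 in knockout and 6452 to 8315 in wild type islets), with Krt19 not above background on any array. Macrophage markers (5 of 7 on the array) summed to 1058 to 1119 in knockout and 1551 to 1959 in wild type islets, with Adgre1 higher and Lyz2 lower past the test. Endothelial markers (6 of 6) summed to 5821 to 6138 in knockout and 4325 to 4354 in wild type islets, and 0 passed in limma (3 higher at an unadjusted p below 0.05). Of all 9352 tested genes, 2169 were higher and 1525 lower at that unadjusted p. Stromal markers (7 of 7 on the array) summed to 1370 and 2723 in knockout and 2306 and 2072 in wild type islets, with Pdgfra lower past the test and Col1a1 and Col1a2 not above background on any array. Whether these cell types express the members named below, and their part in the results, was not tested. In bulk RNA, fewer cells of a type and less RNA per cell cannot be told apart.

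The members moved in both directions. Of the 47 tested genes, each represented by its brightest tested probe, 9 rose and 9 fell in knockout islets (limma, threshold of 0.05 on the adjusted p), and 29 did not pass. That is 38.3% of the tested members, against 25.5% of all 9352 tested genes (14.5% higher and 11% lower). These shares of all tested genes are also the background for the counts by family below. The members' median change was 0.00 on the log2 scale, with 24 changes above and 23 below 0, and that of all tested genes was 0.06. With median scaling in place of quantile normalization, which moved the median of all tested probes to 0.21, against 0.05 in the values reported here, 12 members were higher and 5 lower, where all tested genes had 24.5% higher and 8.25% lower. Every one of the 18 genes past the test kept its direction under each of 13 alternatives, with both other scalings (median scaling and cyclic loess) among them. Only a different background correction, the authors' values or another scaling could have turned a direction. The other alternatives use the same normalized values, in which the genotypes of these 18 genes did not overlap. By route through the filter, 37 genes were above background on all 4 arrays, of which 7 were higher and 8 lower (13% higher and 9.18% lower among all such genes). A further 9 genes passed through the knockout arrays, 2 of them higher past the test. Through the wild type arrays passed 1 gene, Gsta3, which was lower past the test. Background shares for these routes alone were not computed. Over all 9352 tested genes 25.5% were called, against 22.1% of the 8216 above background on all 4 arrays. Genes that entered through 1 genotype were thus called more often in general. A gene that enters through 1 genotype is favoured to differ, so the shares of tested genes are a description. Normalized values of the genotypes did not overlap in 20 genes with knockout above and 14 with knockout below, which is 42.6% and 29.8% of tested members. Among all tested genes these shares were 39.8% and 28.7% (68.5% in all), so those of the members lay near the background. Just inside the threshold of the rule lay a Cyp4f16 probe with a deciding detection p of 0.0499 and a Cyp20a1 probe at 0.0493. Just outside lay Ugt8a at 0.0512 and Aldh16a1 at 0.0543.

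**Figure D1:**
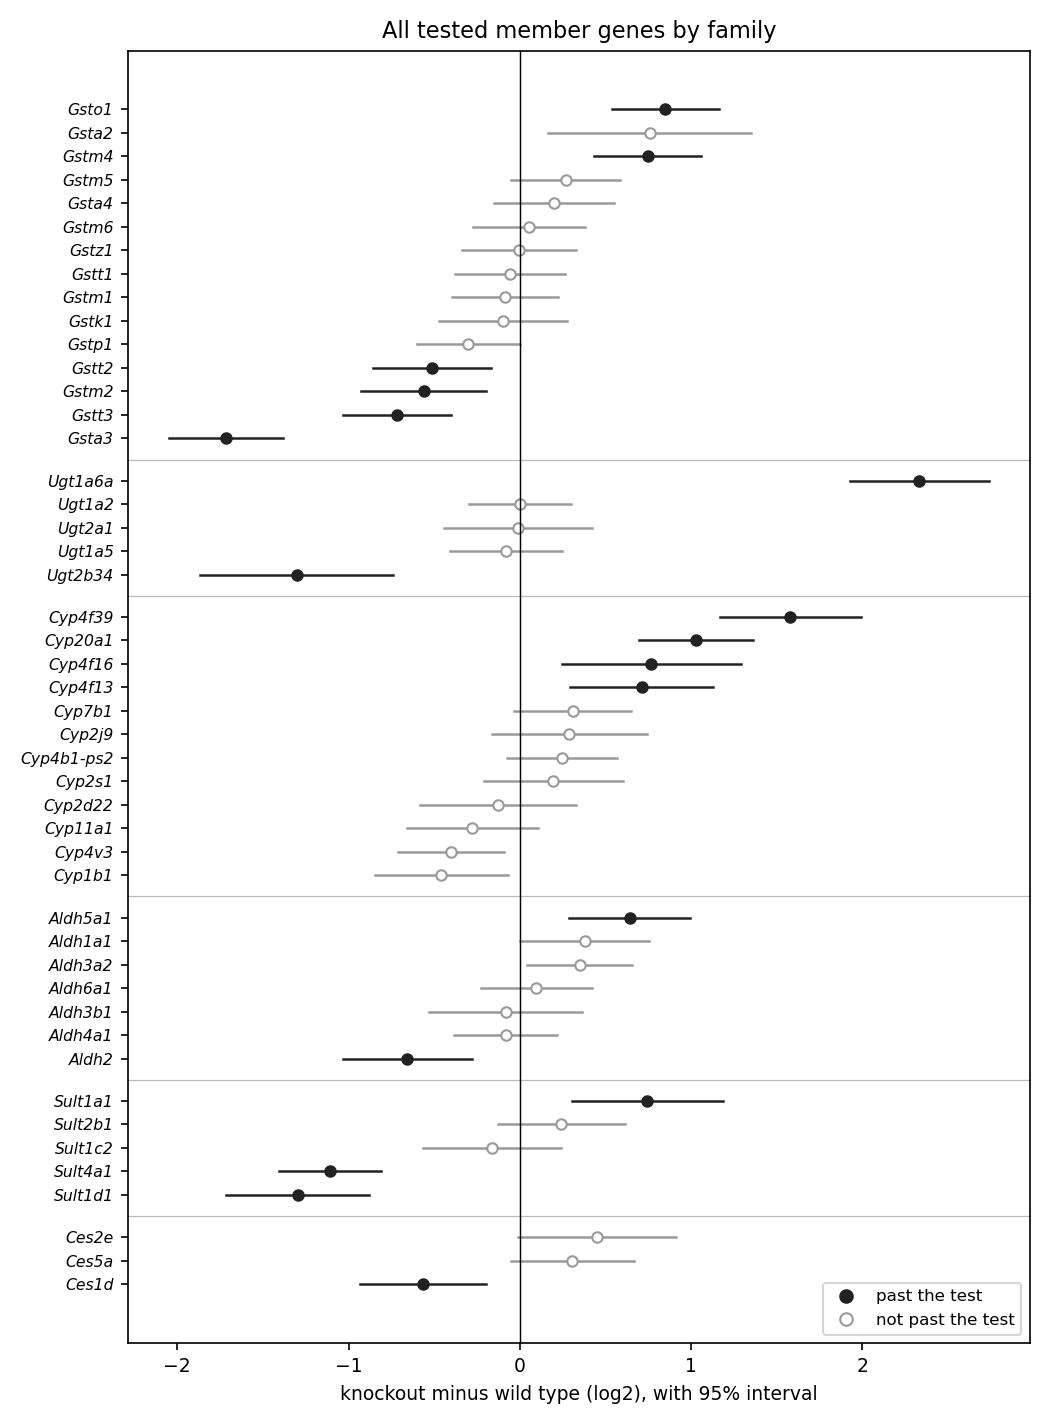
Change of each of the 47 tested member genes, as log2 of knockout minus log2 of wild type (points), with the 95% interval of limma's fit (bars), grouped from top to bottom as Gst, Ugt, Cyp, Aldh, Sult and Ces. Filled points passed the test. Ugt1a6a lies farthest to the right and Gsta3 farthest to the left, and each family holds changes on both sides of 0.

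Upstream sequences are shown for the 3 genes with the largest rises and the 3 with the largest falls among members past the test that had an entry in the RefSeq promoter table (39 of the 47 tested genes had one). Each is the 250 bases before the annotated start, 5′ to 3′ in the direction of the gene, from build GRCm38.p6. Capitals mark the core of the xenobiotic response element bound by the Ah receptor (GCGTG, or CACGC on the other strand) and the core of the antioxidant response element bound by Nrf2 (TGACNNNGC).
Ugt1a6a, chr1:88134559-88134808, + strand: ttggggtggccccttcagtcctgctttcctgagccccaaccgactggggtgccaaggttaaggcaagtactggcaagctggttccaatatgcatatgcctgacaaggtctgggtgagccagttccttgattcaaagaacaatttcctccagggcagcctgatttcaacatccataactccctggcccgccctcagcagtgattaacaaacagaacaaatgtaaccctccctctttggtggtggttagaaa
Cyp4f39, chr17:32452473-32452722, + strand: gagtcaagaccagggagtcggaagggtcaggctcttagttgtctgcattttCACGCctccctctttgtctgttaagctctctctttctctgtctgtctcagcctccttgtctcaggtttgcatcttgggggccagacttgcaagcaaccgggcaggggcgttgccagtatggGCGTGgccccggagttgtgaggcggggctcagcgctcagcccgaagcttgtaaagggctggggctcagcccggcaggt
Cyp20a1, chr1:60343050-60343299, + strand: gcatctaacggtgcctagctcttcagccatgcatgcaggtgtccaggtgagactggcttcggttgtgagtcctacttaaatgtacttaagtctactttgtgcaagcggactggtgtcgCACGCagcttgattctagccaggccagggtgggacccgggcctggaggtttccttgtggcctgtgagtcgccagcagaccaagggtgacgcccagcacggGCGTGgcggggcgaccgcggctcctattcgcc
Gsta3, chr1:21240335-21240584, + strand: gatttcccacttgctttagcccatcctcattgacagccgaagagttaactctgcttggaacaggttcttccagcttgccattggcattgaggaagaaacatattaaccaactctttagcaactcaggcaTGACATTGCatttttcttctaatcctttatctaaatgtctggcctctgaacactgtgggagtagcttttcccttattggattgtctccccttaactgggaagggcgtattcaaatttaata
Ugt2b34, chr5:86906938-86907187, - strand: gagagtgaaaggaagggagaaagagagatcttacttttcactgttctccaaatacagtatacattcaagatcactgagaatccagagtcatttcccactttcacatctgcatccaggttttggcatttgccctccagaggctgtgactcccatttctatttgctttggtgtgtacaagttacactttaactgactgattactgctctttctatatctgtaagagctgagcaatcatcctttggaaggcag
Sult1d1, chr5:87569007-87569256, - strand: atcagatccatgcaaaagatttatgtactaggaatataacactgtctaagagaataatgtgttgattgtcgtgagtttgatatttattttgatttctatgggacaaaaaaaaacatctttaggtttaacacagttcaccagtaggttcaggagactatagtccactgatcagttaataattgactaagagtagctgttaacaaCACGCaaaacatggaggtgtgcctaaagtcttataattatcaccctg

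Both strands were searched, and no marked matches overlapped one another. Cyp4f39 held GCGTG letters starting 199 and 78 bases before the start, Cyp20a1 132 and 32 bases before it, and Sult1d1 47 bases before it. Gsta3 held the antioxidant core 121 bases before its start. The xenobiotic core was found in 3 of 9 higher genes (Cyp20a1, Cyp4f16 and Cyp4f39), 1 of 5 lower genes with an entry and 11 of 25 genes that did not pass, and in 30.9% of 27025 genes with a promoter entry. The antioxidant core was found in 0 of 9 higher, 1 of 5 lower and 2 in all of the 39, and in 11.5% of all genes, with Gstm5 as the other. A GC-rich element of Smad proteins, the transcription factors downstream of bone morphogenetic protein receptors (GGCGCC), was in 2 of the 25 genes that did not pass (Aldh3a2 and Ces5a), in 0 of the 9 higher and 5 lower genes and in 10.8% of all genes. A match is a run of letters and not a binding site, and a window without one says nothing of the factor.

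Glucuronidation genes gave the largest rise among members. Ugt1a6a, whose enzyme glucuronidates small planar phenols, had raw intensities of 219 and 265 on knockout arrays 1 and 2, against 80.7 and 83.9 on wild type arrays 1 and 2, where it was not well above background. Both knockout values lay above both wild type values, and Ugt1a6a was at least 3.50-fold higher in knockout islets (adjusted p = 0.000460). That bound sets the knockout mean against, per wild type array, the higher of the lowest value above background and the probe's own value. The other tested Ugt1a6a probe gave a bound of at least 1.58-fold (adjusted p = 0.00545). Neither probe was above background on a wild type array, so both were tested only through the knockout arrays. The tested neighbours on chromosome 1 did not pass: Ugt1a2 changed by 0.00 (95% interval -0.30 to 0.30) and Ugt1a5 by -0.08 (-0.41 to 0.25). Genes of the Ugt1a locus have first exons of their own spliced to shared exons, and which exons these probes match was not analysed here. Ugt1a7c, of the same locus and not counted as a member, was higher past the test in all 4 of its tested probes. Raw intensities of its brightest probe were 841 and 1099 in knockout and 109 and 130 in wild type islets.

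Ugt2b34, of the steroid- and drug-conjugating Ugt2b subfamily, had raw intensities of 194 and 273 in knockout and 418 and 491 in wild type islets. The genotypes did not overlap, although the knockout arrays differed more than the wild type arrays (normalized log2 values of 7.40 ± 0.48 in knockout and 8.70 ± 0.12 in wild type, SD, n = 2). Ugt2b34 fell by 1.30 ± 0.23 (SE, adjusted p = 0.0112), a call that ended without wild type 1 or wild type 2 (adjusted p = 0.0528 and 0.0743) and with dim probes included (adjusted p = 0.0575). Ugt2a1, known from olfactory epithelium, was at 101 and 119 in knockout and 121 and 106 in wild type islets, and its genotypes overlapped. Of 19 Ugt genes on the array, 5 were tested, 1 rose and 1 fell.

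Glutathione transferases included 2 rises and 4 falls among 15 tested of 22 on the array. Gsto1, an omega class enzyme that reduces dehydroascorbate, had raw intensities of 684 and 697 in knockout, against 356 and 390 in wild type islets. The groups were well apart, and Gsto1 rose by 0.85 ± 0.13 (SE, adjusted p = 0.00625), a call that ended without wild type 1 (adjusted p = 0.0543). Gstm4, a mu class enzyme, was at 247 and 250 in knockout and 173 and 164 in wild type islets. It rose by 0.75 ± 0.13 (adjusted p = 0.0103), a call that ended without wild type 2 (adjusted p = 0.0824). Gsta2, an alpha class gene not well above background on either wild type array, stood at 114 and 157 in knockout and 105 and 95.6 in wild type islets. Its knockout arrays lay far apart, and its change of 0.76 ± 0.25 did not pass (adjusted p = 0.0680), although it passed once knockout 1 was left out (1.13, adjusted p = 0.00697) and with median scaling (adjusted p = 0.0352). Without knockout 2 it was at 0.38 (adjusted p = 0.115).

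Among the falls, Gsta3 was the largest. This alpha class enzyme, known in mouse liver for conjugating the activated form of aflatoxin, had raw intensities of 88.5 and 79.9 in knockout and 173 and 185 in wild type islets. On both knockout arrays it was not well above background, and it was at least 2.54-fold lower there (adjusted p = 0.000641). Its call held under all 13 alternatives. A pair of theta class genes was lower as well. Gstt3 was at 191 and 183 in knockout and 245 and 281 in wild type islets, and fell by 0.72 ± 0.13 (adjusted p = 0.0122), a call that ended without wild type 1 or 2 (adjusted p = 0.0516 and 0.0924). Gstt2 was at 263 and 289 in knockout and 327 and 371 in wild type islets, and fell by 0.51 ± 0.14 (adjusted p = 0.0440), with its other tested probe at -0.76, also past the test. The Gstt2 call of the brightest probe was lost without knockout 1, wild type 1 or wild type 2 (adjusted p = 0.121 to 0.221), with median scaling and with dim probes included (adjusted p = 0.181 and 0.0776).

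Gstm2, a mu class gene, had raw intensities of 1223 and 1375 in knockout and 1486 and 1794 in wild type islets. It fell by 0.56 ± 0.15 (adjusted p = 0.0398). A further Gstm2 probe was at -0.70 and past the test, and another at 0.07 and not past it. The call was lost without knockout 1, wild type 1 or wild type 2 (adjusted p = 0.111 to 0.207), with median scaling (-0.25, adjusted p = 0.296) and with dim probes included (adjusted p = 0.0837). Members of the mu class are close in sequence, and hybridisation of a probe to a related transcript was not analysed here. Gstp1, the pi class enzyme, was at 3555 and 3288 in knockout and 3499 and 4000 in wild type islets by its brightest probe, and its 3 probes changed by -0.30 to -0.09, none past the test (adjusted p = 0.125 for the brightest). The brightest passed with an intensity trend (adjusted p = 0.0450) and was at -0.04 with median scaling (adjusted p = 0.877). Neither Gstz1, which takes part in tyrosine breakdown (95% interval of the change -0.34 to 0.33), nor Gstk1, of mitochondria and peroxisomes (-0.47 to 0.28), passed.

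In 3 of 4 subfamilies examined by position, tested neighbours did not all have the same call. Unlike calls do not show that neighbours differ, and differences between neighbours were not tested. Of all tested genes, 25.5% were called in either direction. In the RefSeq annotation (GRCm38.p6) the tested mu class genes lie on chromosome 3 in the order Gstm5, Gstm6, Gstm2, Gstm1 and Gstm4. Gstm2 fell and Gstm4 rose, while Gstm1 between them changed by -0.09 (95% interval -0.40 to 0.22) without passing. On chromosome 10, Gstt3 and Gstt2 fell, with Gstt1 between them at -0.06 (-0.38 to 0.26). The 3 tested Cyp4f genes on chromosome 17 all rose, of 8 Cyp4f genes on the array. Of these, Cyp4f39 was tested only through the knockout arrays, which favours a rise. The calls of Cyp4f13 and Cyp4f16 were lost under several alternatives given below. Cyp4f39 and Cyp4f16 have 1 other coding gene between them, and Cyp4f13 is 8 coding genes further on.

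**Figure D2:**
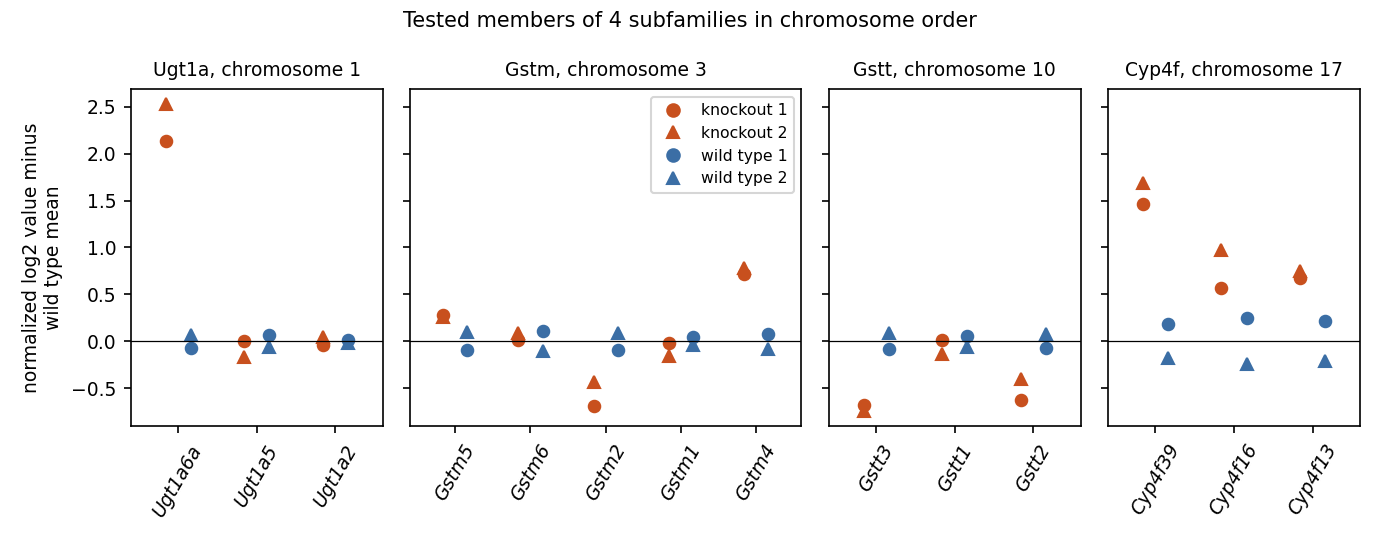
Normalized log2 value of each array minus the wild type mean of the same gene, for tested members of the Ugt1a, Gstm, Gstt and Cyp4f subfamilies in chromosome order. Orange symbols are knockout and blue symbols wild type arrays. Ugt1a6a, Gstm4 and the 3 Cyp4f genes have both knockout arrays above 0, and Gstm2, Gstt3 and Gstt2 have both below. Among genes that did not pass the test, Gstm5 and Gstm6 also have both above 0 and Gstm1 both below.

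Cytochromes P450 gave 4 rises and 0 falls among 12 tested genes of 78 on the array in limma (4 higher and 2 lower at an unadjusted p below 0.05). Of all tested genes, 14.5% were higher and 11% lower past the test. At an unadjusted p below 0.05, 2169 of all 9352 tested genes were higher and 1525 lower. These numbers are also the background for the unadjusted counts of the partner lists below. The families 1 to 3, which hold most drug-metabolising P450s, were mostly not above background: 4 of their 47 genes had a tested probe (Cyp1b1, Cyp2d22, Cyp2j9 and Cyp2s1), and 0 passed in limma (0 higher and 1 lower at an unadjusted p below 0.05). Cyp1b1, which hydroxylates estradiol and procarcinogens, was at 106 and 121 in knockout and 146 and 133 in wild type islets. Its change was -0.46 ± 0.16 and did not reach the threshold (adjusted p = 0.0838), whereas leaving out knockout 2 took it past (-0.61, adjusted p = 0.0450). Leaving out knockout 1 gave -0.30 (adjusted p = 0.234).

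The rises were in the Cyp4f subfamily, omega-hydroxylases of fatty acids and leukotrienes, and in Cyp20a1. Cyp4f39, the mouse counterpart of human CYP4F22, which hydroxylates very long fatty acids for the skin barrier, had raw intensities of 168 and 185 in knockout and 101 and 78.3 in wild type islets. It was not well above background on either wild type array and at least 2.30-fold higher in knockout islets (adjusted p = 0.00188), a call kept under all 13 alternatives. Its probe had only 16 to 20 beads per array, with a standard error over beads of up to 10.2% of the intensity. Cyp4f13 was at 548 and 541 in knockout and 360 and 299 in wild type islets, and rose by 0.71 ± 0.17 (adjusted p = 0.0290). Its call ended without knockout 1, knockout 2 or wild type 2 (adjusted p = 0.0597, 0.0700 and 0.150) and with dim probes included (adjusted p = 0.0842). Cyp4f16 was at 152 and 183 in knockout and 135 and 110 in wild type islets, the narrowest gap of the 3. It rose by 0.77 ± 0.22 (adjusted p = 0.0462), with its other tested probe at 0.44 and not past the test. The Cyp4f16 call was lost without knockout 2, wild type 1 or wild type 2 (adjusted p = 0.0568 to 0.220), with cyclic loess, with dim probes included and with the replicate block (adjusted p = 0.0588, 0.149 and 0.0520).

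Cyp20a1, a P450 whose natural substrate is not established, had raw intensities of 437 and 418 in knockout and 236 and 217 in wild type islets by its brightest probe. It rose by 1.03 ± 0.14 (adjusted p = 0.00420), and the call was kept under all 13 alternatives. Of its other probes, neither above background on a wild type array, one gave a bound of at least 1.62-fold higher (adjusted p = 0.0129), and the other did not pass (adjusted p = 0.0730). Cyp11a1, the mitochondrial enzyme that starts steroid synthesis from cholesterol, had probes with changes of opposite sign. Its brightest probe was at 205 and 226 in knockout and 222 and 267 in wild type islets and did not pass (-0.28 ± 0.16, adjusted p = 0.239). Its other probe was at 108 and 110 in knockout and 86.5 and 88.8 in wild type islets, where it was not above background on either array, so that it was tested only through the knockout arrays. Its bound was at least 1.06-fold higher (adjusted p = 0.0292). Cyp4v3, a fatty acid omega-hydroxylase, was at 743 and 739 in knockout and 786 and 915 in wild type islets. Its change of -0.40 ± 0.13 did not pass (adjusted p = 0.0644), but did with the authors' values (-0.37, adjusted p = 0.0331) and with 3 other settings (adjusted p = 0.0302 to 0.0407). With median scaling it was at -0.12 (adjusted p = 0.627).

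Aldehyde dehydrogenases split between a rise and a fall among 7 tested genes of 17. Aldh5a1, succinic semialdehyde dehydrogenase, completes the breakdown of the transmitter GABA. Its brightest probe had raw intensities of 835 and 951 in knockout and 509 and 546 in wild type islets, and rose by 0.64 ± 0.15 (adjusted p = 0.0244). Neither of its other 2 probes passed (0.38 and -0.06), and the call was lost without knockout 2, wild type 1 or wild type 2 (adjusted p = 0.0558, 0.123 and 0.123) and with dim probes included (adjusted p = 0.0551). Aldh2, the mitochondrial enzyme that clears acetaldehyde, was at 2033 and 1785 in knockout and 2777 and 2389 in wild type islets. It fell by 0.66 ± 0.15 (adjusted p = 0.0272). Leaving out any single array ended the Aldh2 call (adjusted p = 0.0515 to 0.153), and so did median scaling (-0.35, adjusted p = 0.158) and testing dim probes too (adjusted p = 0.0679).

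Further aldehyde dehydrogenases did not pass. Aldh3a2, fatty aldehyde dehydrogenase, was at 1169 and 1162 in knockout and 816 and 812 in wild type islets, groups that did not overlap. Its change of 0.35 ± 0.13 did not pass (adjusted p = 0.0907), but did with median scaling (0.64, adjusted p = 0.0159) and an intensity trend (adjusted p = 0.0420). Aldh1a1, which makes retinoic acid from retinaldehyde, was at 110 and 122 in knockout and 110 and 93.9 in wild type islets (0.38 ± 0.15, adjusted p = 0.123) and was not well above background on either wild type array. Aldh6a1, of valine breakdown, was at 2834 and 2979 in knockout and 2212 and 2616 in wild type islets. Its raw values did not overlap, its normalized values did, and the 95% interval of its change was -0.23 to 0.42.

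Sulfotransferases had 1 rise and 2 falls among 5 tested genes of 13. Sult1d1, which in mouse sulfates catecholamines, had raw intensities of 281 and 350 in knockout, against 592 and 670 in wild type islets. It fell by 1.30 ± 0.17 (adjusted p = 0.00406). Sult4a1, a neuronal family member with little known catalytic activity, was at 593 and 540 in knockout and 964 and 1079 in wild type islets, and fell by 1.11 ± 0.12 (adjusted p = 0.00210). Both genes had their genotypes far apart relative to the spread within each, and both calls were kept under all 13 alternatives. Sult1a1, a phenol sulfotransferase, was at 265 and 292 in knockout and 202 and 170 in wild type islets. It rose by 0.74 ± 0.18 (adjusted p = 0.0301), a call that ended without knockout 2 or wild type 2 (adjusted p = 0.0826 and 0.158) and with dim probes included (adjusted p = 0.0936). Neither Sult2b1 (0.24 ± 0.15, adjusted p = 0.284), a sulfotransferase of cholesterol, nor Sult1c2 (-0.16 ± 0.17, adjusted p = 0.508) passed.

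Carboxylesterases had 3 tested genes of 14. Ces1d, a hydrolase of stored triacylglycerol in mouse, had raw intensities of 176 and 150 in knockout and 211 and 210 in wild type islets. It fell by 0.56 ± 0.15 (adjusted p = 0.0404). The call was lost without knockout 2, wild type 1 or wild type 2 (adjusted p = 0.0960 to 0.183), with the authors' values (-0.34, adjusted p = 0.0539), with an intensity trend, with dim probes included and with median scaling (adjusted p = 0.0529, 0.0860 and 0.0999). Ces2e and Ces5a changed by 0.45 ± 0.19 and 0.31 ± 0.15 and did not pass (adjusted p = 0.133 and 0.176).

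**Figure D3:**
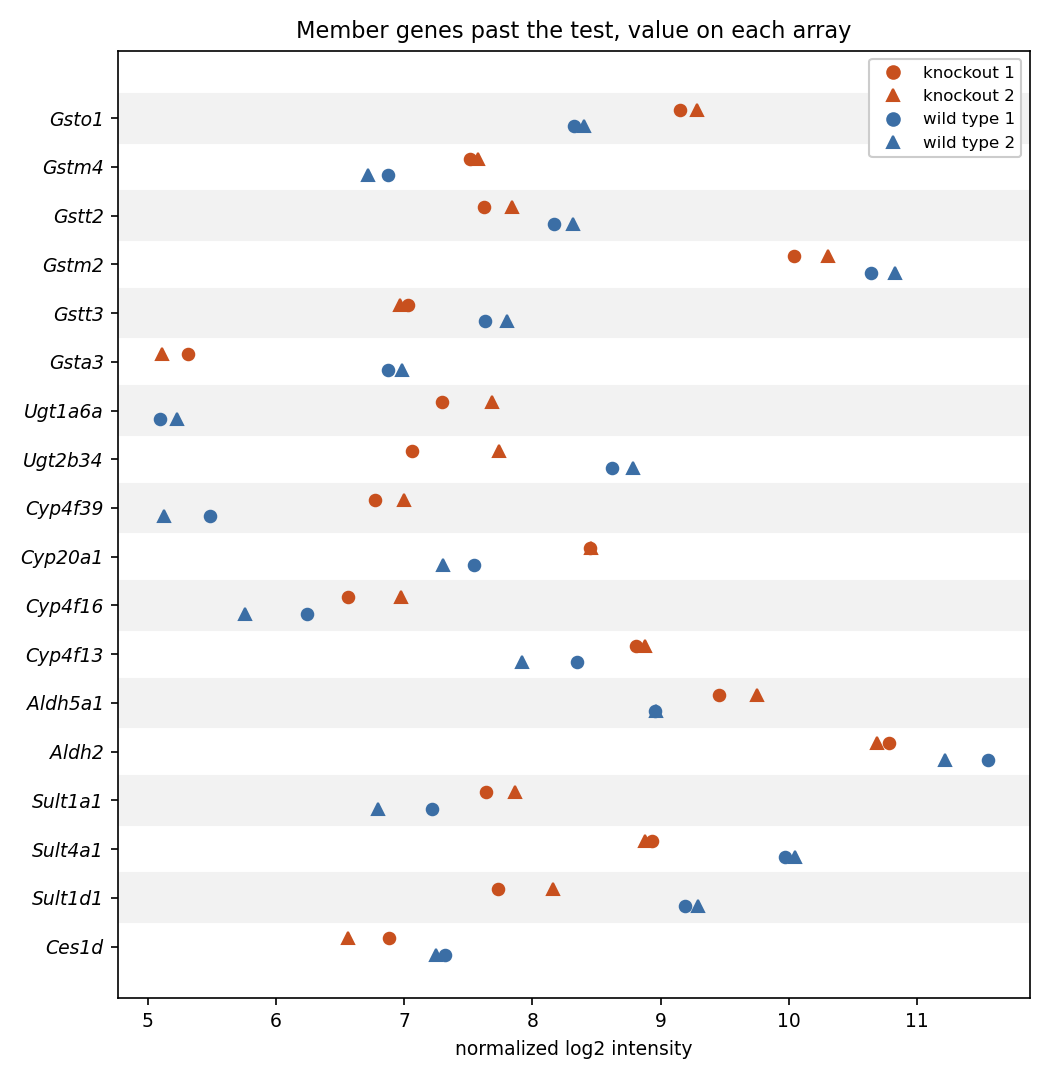
Normalized log2 intensity on each of the 4 arrays for the 18 member genes past the test, by family and, within a family, from the highest to the lowest change. Orange symbols are knockout arrays 1 (circle) and 2 (triangle), and blue symbols wild type arrays 1 and 2. In each row the knockout symbols lie on 1 side of the wild type symbols.

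Several genes had more than 1 probe, which gave a second reading of the same comparison. Of 11 member genes with more than 1 tested probe, 4 had probes of both signs (Aldh5a1, Cyp11a1, Gstm2 and Gstm6). Of the 62 probes, 12 passed as higher and 11 as lower, against 14.1% higher and 11.4% lower of all 15639 tested probes. Both probes passed in the same direction in Ugt1a6a and Gstt2. Both Ugt1a6a probes were tested only through the knockout arrays, which favours a rise, and probes of 1 gene read the same RNA.

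**Figure D4:**
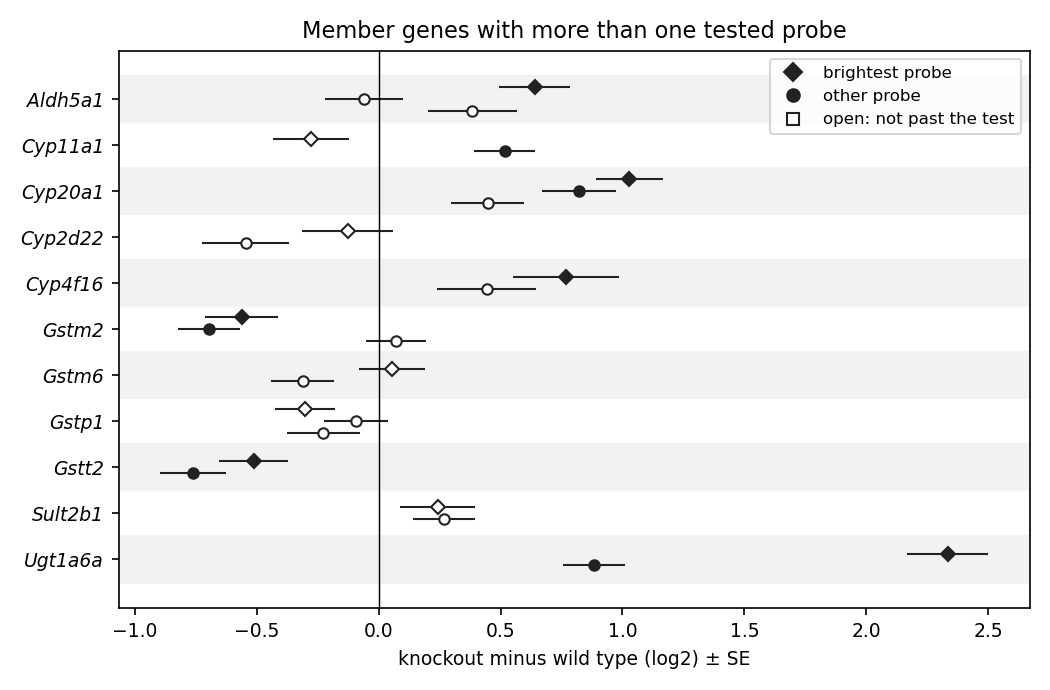
Change of each tested probe, as log2 of knockout minus log2 of wild type, with the SE of limma's fit, for the 11 member genes with more than 1 tested probe. Diamonds are the brightest probe and circles other probes, and open symbols did not pass. Aldh5a1, Cyp11a1, Gstm2 and Gstm6 have probes on both sides of 0.

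Genes that work beside these enzymes were counted by list. Of 42 tested partner genes, 7 were higher and 1 lower in knockout islets, where all tested genes had 14.5% higher and 11% lower. With median scaling the counts were 15 and 1, where all tested genes had 24.5% higher and 8.25% lower. Among other detoxifying enzymes, 4 of 15 were higher and 1 lower. Fmo1, a flavin monooxygenase, had raw intensities of 232 and 224 in knockout and 67.7 and 60.4 in wild type islets, where it was not well above background, and was at least 3.25-fold higher (adjusted p = 0.000131). Aox1, aldehyde oxidase, was at 537 and 615 in knockout and 212 and 231 in wild type islets and rose by 1.55 ± 0.15 (adjusted p = 0.00132). Both calls were kept under all 13 alternatives. Adh1, an alcohol dehydrogenase named because it was the single fall, was at 622 and 821 in knockout and 1110 and 1255 in wild type islets, and fell by 0.97 ± 0.19 (adjusted p = 0.0159), a call that ended without wild type 1 or wild type 2 (adjusted p = 0.0787 and 0.0940) and with dim probes included (adjusted p = 0.0633).

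Of 7 glutathione supply genes, 1 rose and 0 fell in limma (3 higher and 0 lower at an unadjusted p below 0.05). Ggt7, of the gamma-glutamyltransferase family, was at 154 and 170 in knockout and 113 and 112 in wild type islets and rose by 0.93 ± 0.14 (adjusted p = 0.00565). The subunits of the enzyme that starts glutathione synthesis, Gclc and Gclm, changed by 0.37 ± 0.19 and 0.36 ± 0.13 and did not pass (adjusted p = 0.190 and 0.0902). Of the P450 electron donors, Cyb5a rose by 0.61 ± 0.16 (adjusted p = 0.0349), a call that ended without knockout 1, wild type 1 or wild type 2 (adjusted p = 0.0899 to 0.176) and with dim probes included (adjusted p = 0.0815). Of the exporters, Abcc10 rose by 0.49 ± 0.13 (adjusted p = 0.0382), a call that ended whichever array was left out (adjusted p = 0.0634 to 0.210) and under 5 other settings (adjusted p = 0.0530 to 0.0640). Its other tested probe did not pass (0.32, adjusted p = 0.428). Of 8 tested regulators, 0 passed in limma (0 higher and 2 lower at an unadjusted p below 0.05). Those 2 were Nr1h3, an oxysterol receptor gene, at -0.51 ± 0.17 and Nr1h4, the bile acid receptor gene, at -0.47 ± 0.15 (adjusted p = 0.0771 and 0.0644). The Nrf2 inhibitor gene Keap1 changed by 0.16 ± 0.13 and the Ah receptor partner gene Arnt by -0.12 ± 0.14, neither past the test. All 5 genes that supply donors of sulfate and glucuronic acid had changes above 0 (0.00 to 0.35), none past the test or at an unadjusted p below 0.05. Of all 9352 tested genes, 5226 had changes above 0 and 4126 below.

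**Figure D5:**
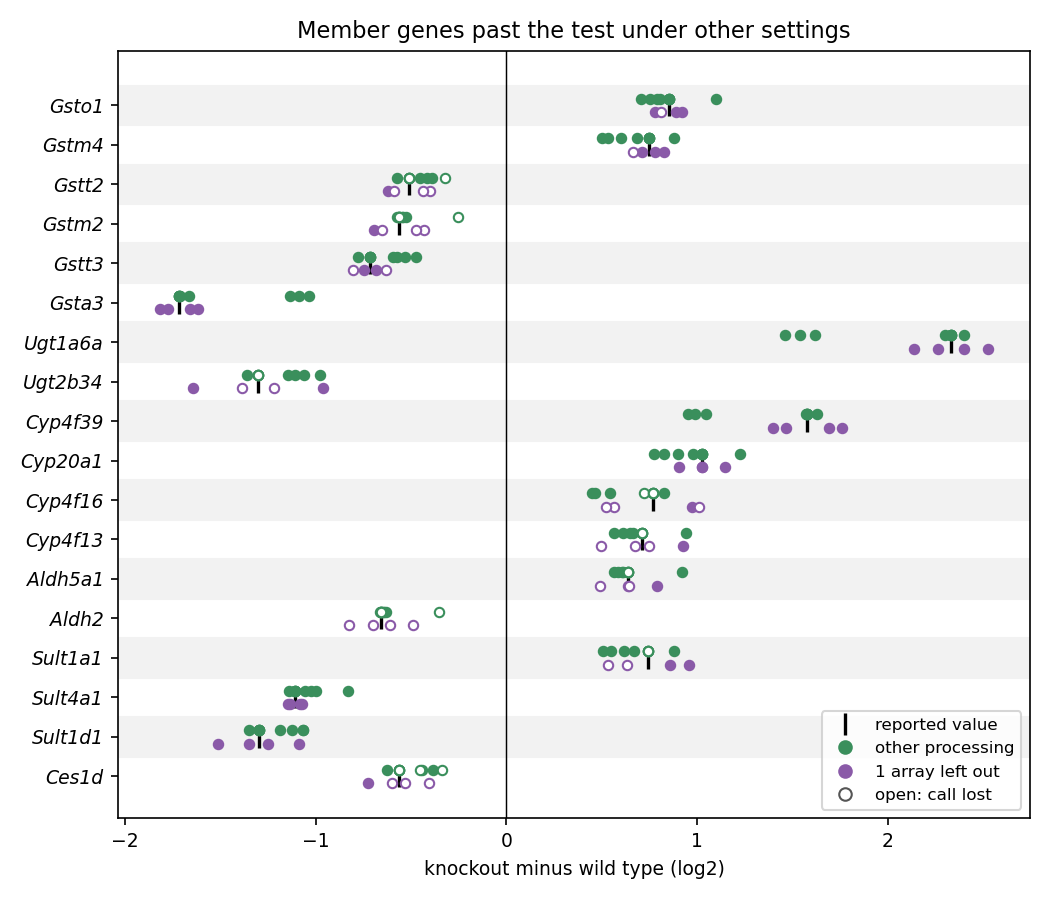
Change of the 18 member genes past the test, as log2 of knockout minus log2 of wild type, as reported (black ticks), under 9 other processing settings (green) and with 1 array left out (purple), with open symbols where the call was lost. No gene crosses 0, and Ugt1a6a, Cyp4f39, Cyp20a1, Gsta3, Sult1d1 and Sult4a1 have filled symbols throughout.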

How the data were processed

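RNA of mouse islets was measured on 4 Illumina bead arrays, 2 per genotype. Per the file headers, one deposited table gives the linear intensity of every probe on every array as the mean over its beads, with a standard error, the bead number and a detection p-value. A further deposited table, on a log2 scale, came from the authors' own processing. It keeps the order of the raw intensities on each array, is not centred, and the labels do not state how the authors brought the arrays together.

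In limma 3.58.1 (R 4.3.3), normexp used the detection p-values to correct the background (offset 16). All 46632 probes were then put on the log2 scale and quantile normalized. This subtracts background, so log2 changes of dim probes exceed the raw ratios, and the offset shrinks them. The comparison was fitted with lmFit and eBayes on 15639 tested probes (6.24 degrees of freedom, two-sided), adjusted by Benjamini-Hochberg over all of them, with a threshold of 0.05. An exact permutation test of 2 against 2 arrays cannot go below p = 0.333, so none was used.

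Probes were named from the platform annotation, and all 163 member genes were found in the RefSeq table (GRCm38.p6) by gene ID. The brightest tested probe stands for a gene. The named genes were every member past the test, in each family the member with the highest mean raw intensity and up to 2 with the largest change not past it, and up to 2 partner genes per list. Others (Adh1, Gclc, Gclm, Nr1h3, Nr1h4, Keap1, Arnt, Gstz1, Gstk1, the neighbours on the chromosome, and Ugt1a7c) were chosen after their values were seen. Members, partner lists and marker lists were chosen with earlier results of these data known. Raw intensities of the knockout pair differed by over 1.96 times the standard error that beads give in 35.9% of tested probes. In the wild type pair the share was 26.8%, where bead error alone gives 5%. As these intensities were not normalized, differences in brightness between whole arrays enter both shares. Alternatives are in the closing section.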

Additional observations from a re-analysis of the deposited data

How the results depend on the processing

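The 18 member genes past the test kept their direction under all alternatives run for single genes, and 6 of them (Ugt1a6a, Cyp4f39, Cyp20a1, Gsta3, Sult1d1 and Sult4a1) also kept the call. Alternatives that left out 1 array or changed only the filter or the fit could not turn these directions. They use the same normalized values, in which the genotypes of the 18 genes did not overlap. With no background correction the changes of dim probes were smaller: Ugt1a6a was at 1.54, Cyp4f39 at 0.99 and Gsta3 at -1.09. With the authors' values, whose background treatment is not known here, Ugt1a6a was at 1.46, Cyp4f39 at 0.95 and Gsta3 at -1.03. Leaving out 1 array gave 4 to 10 member genes higher and 3 to 8 lower, 4 to 13 member probes higher and 3 to 11 lower, and 4 to 9 partner genes higher and 0 to 3 lower. These fits assume that the lone array left in a genotype varies like the other pair. The lowest counts came without wild type 1 (6 member genes higher and 3 lower, with 4.45% and 5.69% of all tested genes) and wild type 2 (4 and 3, with 4.63% and 5.03%). Without knockout 1 the counts were 10 and 6 (11.1% and 9.69% of all tested genes), and without knockout 2 they were 5 and 8 (13.2% and 11%). With median scaling 5 member genes and 6 member probes were lower and 15 partner genes higher. All tested genes then had 24.5% higher and 8.25% lower. With dim probes included, which adjusts over all probes, 5 member genes were higher and 4 lower (10.3% and 7.86% of all tested genes), 6 member probes lower and 0 partner genes lower in limma. The single lower partner gene became 2 with an offset of 50, with no background correction and with the replicate block, and 3 with the authors' values and an intensity trend. Over these settings 10.9% to 12.4% of all tested genes were lower. With replicate numbers as a block, 8 member genes were higher and 9 lower (13.9% and 10.9% of all tested genes), and Cyp4f16 lost its call. The labels do not say whether the replicate numbers pair the samples. Differences between replicates 1 and 2 of the genotypes correlated at 0.02 over tested probes, and shared handling was not tested. With 1 array left out, 10 members changed sign, none of them past the test, and with median scaling 7 did (Aldh3b1, Aldh4a1, Cyp2d22, Gstk1, Gstm1, Gstt1 and Gstz1). Among those 10, Sult1c2 ranged between -0.34 and 0.011 (above 0 without knockout 1), Ugt1a5 between -0.17 and 0.0064 (above 0 without knockout 2), and Ugt2a1 between -0.20 and 0.18 (0.18 without knockout 1 and 0.13 without wild type 1). The causes were not tested. Signal over background limits 116 of 163 member genes, which had no tested probe.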

Other observations

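Of the 173 member probes that were not tested, 160 were above background on none of the 4 arrays and 13 on some. Those 13 include 9 genes with no tested probe (Aldh16a1, Aldh1b1, Cyp26b1, Cyp2b19, Cyp39a1, Cyp3a13, Gsta1, Gstcd and Ugt8a), and 8 of the 13 were above background on 1 knockout array and no wild type array. A second Gsta2 probe had raw intensities of 93.6 and 210 on knockout arrays 1 and 2, and 70.5 and 64.9 on wild type arrays 1 and 2. Gsta1 had 83.9 and 125 in knockout and 73.9 and 80.0 in wild type islets. In both alpha class genes knockout array 2 was the higher knockout array, as it was for the tested Gsta2 probe (157, against 114 on knockout 1). Per array, 64 and 69 member probes were above background in knockout and 52 and 52 in wild type islets, while over all probes the numbers were 16171 and 15315 in knockout and 14785 and 14957 in wild type islets.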
